A study of Mus musculus with 20 samples.

Results

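The genes described here encode the proteins of the mitochondrial ribosome. They are the 77 genes of 18657 in the 6-month table, and the same 77 of 17808 in the 6-week table, whose symbol begins with Mrpl or Mrps and a number, pseudogenes left out. The mitochondrial ribosome translates the few messages encoded by mitochondrial DNA, all of which are core subunits of the respiratory chain and ATP synthase. Its RNA comes from the mitochondrial genome, whereas its proteins are all encoded in the nucleus, made in the cytosol and imported, so its assembly joins the output of both genomes. In the heart, where most ATP comes from oxidative phosphorylation, inherited defects of several of these proteins cause cardiomyopathy in humans. By structure, 50 of the genes encode proteins of the large subunit and 26 of the small subunit. Of the 76 subunit proteins, 46 have a bacterial homologue and 30 are specific to mitochondria. Mrps30 and Mrps18a count with the large subunit in spite of their symbols. The remaining gene, Mrps36, carries the name of a small subunit protein, but its product is a subunit of the 2-oxoglutarate dehydrogenase complex. Mrps36 is nonetheless kept among the 77 in all counts that follow, where the 77 are called mitoribosomal protein genes or members.

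The libraries are RNA from the hearts of 20 mice that form 5 groups. At an age of 6 weeks these were 3 Sorbs2 KO and 3 Sorbs2 WT mice, and at 6 months 4 KO mice injected on postnatal day 2 with AAV9-Tnnt2-Sorbs2 (KO+AAV), 5 untreated KO mice and 5 untreated WT mice. The virus expresses Sorbs2, a cytoskeletal adaptor protein, from the cardiomyocyte promoter of Tnnt2. No group received a control virus, so an effect of the vector itself and an effect of restored Sorbs2 cannot be told apart. The tissue is named left ventricle as the source and ventricular myocardium in the protocol, and the labels name neither sex nor litter. Atrial markers were nonetheless high in the 6-week libraries, as described below. At 6 months Sorbs2 itself ranged over 4696 to 17923 normalised counts in KO+AAV hearts, 494 to 1755 in KO hearts and 4562 to 5398 in WT hearts. At 6 weeks it ranged over 276 to 365 in KO hearts, against 1409 to 1990 in WT hearts.

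All 77 genes had values high enough to be tested at both ages, that is, a normalised count of 10 or more in 3 libraries at 6 weeks or 4 at 6 months, the size of the smallest group. At 6 months the mean normalised count of a gene was 260 to 4228 in KO+AAV hearts, 195 to 2478 in KO hearts and 313 to 4001 in WT hearts. At 6 weeks they spanned 39.0 to 1185 in KO and 43.7 to 1632 in WT. The tables of the 2 ages were normalised separately, so levels are compared within an age only. Per kilobase of transcript, the highest WT levels at 6 months were those of Mrpl42 (6007 ± 1154 normalised counts per kilobase, SD, n = 5), Mrpl33 (3088 ± 1068) and Mrpl30 (2466 ± 478). The lowest were those of Mrps25 (107 ± 19.9), Mrpl47 (104 ± 14.1) and Mrps17 (99.6 ± 16.3), whose levels lay within each other's spread. The divisor was the longest annotated principal transcript, of 6073, 3364 and 5061 bases for these and 666, 478 and 969 for the highest. Which transcripts the hearts expressed was not determined, so the order depends on the annotated lengths. The spread of Mrpl33 took in the mean of Mrpl30, and Mrpl42 stood above both. Mrpl42, Mrpl33 and Mrpl30 share 28.6%, 33.3% and 18.7% of their 31-base words with other genes, and 75.6% of the exonic bases of Mrps25 lie opposite Nr2c2. How the authors' counting divided such reads therefore bears on these levels.

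Promoter sequences are shown for 5 members, chosen to set beside the expression values below. They run from 250 bases before the annotated start to 50 bases after it, in the mouse build GRCm38.p6 from RefSeq, 5′ to 3′ on the strand of the gene. Capitals mark matches to motifs of factors known to act on nuclear genes for mitochondrial proteins: CCGGAAG for ETS factors such as GABPA, AAGATGG for YY1 and AAGGTCA for the core site of oestrogen-related receptors. On the gene's strand a match can also read as the reverse complement, as it does in Mrpl12 and Mrps11. Mrpl12, Mrpl34 and Mrpl42 fell in KO hearts. Mrpl46 and Mrps11 are a pair of neighbouring genes read in opposite directions, whose windows share 141 bases. Mrps11 lies outside the naming rule and was chosen after its values were seen.
Mrpl12, chr11:120484387-120484686, plus strand: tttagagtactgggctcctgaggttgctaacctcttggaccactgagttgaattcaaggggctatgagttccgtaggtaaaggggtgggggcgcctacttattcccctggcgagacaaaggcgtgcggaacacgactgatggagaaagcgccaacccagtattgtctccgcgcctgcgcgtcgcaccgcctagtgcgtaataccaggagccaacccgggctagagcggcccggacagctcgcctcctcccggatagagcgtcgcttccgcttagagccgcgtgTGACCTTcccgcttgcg
Mrpl34, chr8:71464676-71464975, plus strand: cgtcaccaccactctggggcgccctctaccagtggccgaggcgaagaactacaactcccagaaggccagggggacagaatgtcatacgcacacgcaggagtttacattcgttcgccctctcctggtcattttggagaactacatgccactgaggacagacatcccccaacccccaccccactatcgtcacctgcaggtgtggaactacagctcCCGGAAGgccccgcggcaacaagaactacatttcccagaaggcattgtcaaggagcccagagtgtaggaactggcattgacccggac
Mrpl42, chr10:95501900-95502199, minus strand: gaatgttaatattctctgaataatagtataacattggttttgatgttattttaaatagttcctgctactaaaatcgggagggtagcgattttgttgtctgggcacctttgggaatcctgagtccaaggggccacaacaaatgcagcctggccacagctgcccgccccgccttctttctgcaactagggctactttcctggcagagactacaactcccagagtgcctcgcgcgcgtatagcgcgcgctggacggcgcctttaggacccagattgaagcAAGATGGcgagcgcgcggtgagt
Mrpl46, chr7:78783040-78783339, minus strand: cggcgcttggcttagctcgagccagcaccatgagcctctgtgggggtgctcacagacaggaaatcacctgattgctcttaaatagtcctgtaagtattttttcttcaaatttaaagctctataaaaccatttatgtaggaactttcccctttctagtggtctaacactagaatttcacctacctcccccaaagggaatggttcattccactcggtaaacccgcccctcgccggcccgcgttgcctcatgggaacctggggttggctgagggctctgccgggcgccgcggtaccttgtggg
Mrps11, chr7:78782881-78783180, plus strand: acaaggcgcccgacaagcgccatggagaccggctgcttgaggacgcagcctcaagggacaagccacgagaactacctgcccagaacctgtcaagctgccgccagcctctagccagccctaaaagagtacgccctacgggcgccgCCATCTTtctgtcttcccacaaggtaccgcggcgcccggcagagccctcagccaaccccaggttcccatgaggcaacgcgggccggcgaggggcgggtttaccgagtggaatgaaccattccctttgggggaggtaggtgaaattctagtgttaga

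In KO hearts at 6 months, mitoribosomal protein genes were lower than in WT hearts as a group. Of the 77 genes, 33 fell and none rose at an adjusted p under 0.05 (limma, Benjamini-Hochberg over all genes tested), where 8.18% of all 13419 tested genes fell and 8.13% rose. The median log2 change of the 77 genes was -0.45, against 0.00 for all genes tested, and 76 of the 77 changes were negative. The groups did not overlap in 27 of the genes, all with KO below WT, where 7.29% of all tested genes had KO wholly below WT and 6.56% wholly above. Among the 33 genes that fell, the KO mean was at most 77.5% of the WT mean, with a median of 65.6%. In bulk tissue, fewer cells of a type and less RNA per cell cannot be told apart. Per library, the median deviation of the 77 genes from the WT mean was -0.23, -0.42, -0.48, -0.57 and -0.48 in KO 1 to 5, against 0.14, -0.26, -0.14, 0.03 and 0.26 in WT 1 to 5, on the log2 scale. The highest KO library, KO 1, lay just above the lowest WT library, WT 2, and the other 4 KO libraries lay below every WT library.

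**Figure D1:**
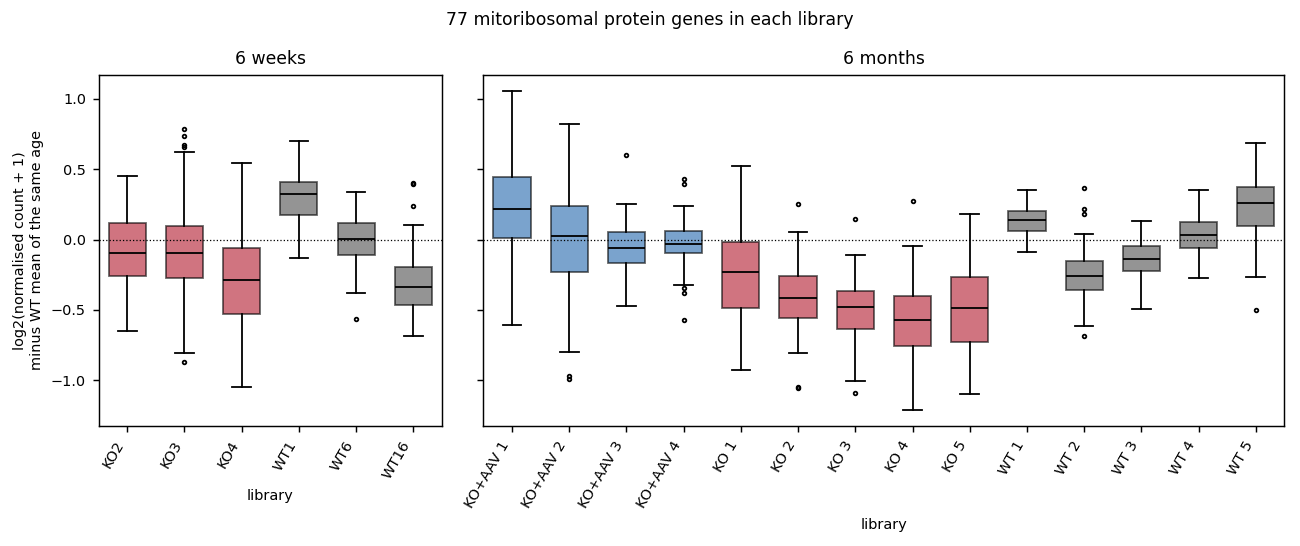
Box plots of the 77 mitoribosomal protein genes in each library, as log2(normalised count + 1) minus the WT mean of the same age; boxes span the quartiles, lines are medians and whiskers reach 1.5 times the box height. At 6 months the KO medians run from -0.57 to -0.23, against -0.06 to 0.22 in KO+AAV and -0.26 to 0.26 in WT, and at 6 weeks KO and WT overlap.

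All 77 are annotated as protein-coding genes, and positions are those of GENCODE on GRCm38, the assembly also called mm10. Several large subunit genes were among those of smallest p. Mrpl28 (chr17:26123500-26126613, plus strand), a bacterial-type protein of the large subunit, had 1235, 1134, 985, 1026 and 988 normalised counts in KO, against 2404, 1627, 1668, 1852 and 2519.8 in WT. Every KO library lay below every WT library, and the fall was 0.89 ± 0.15 (log2, SE; adjusted p = 0.000777). Mrpl47 (chr3:32725397-32737605, minus strand), which sits where the nascent chain leaves the ribosome, had 202, 208, 211, 192 and 161 in KO, against 346, 292, 342, 423 and 340.4 in WT. It was lower in every KO library than in any WT library (log2 change -0.83 ± 0.13, adjusted p = 0.000438), and 18.1% of its exonic bases lie opposite other genes. Mrpl4, whose bacterial counterpart lines the exit tunnel, had 735, 812, 809.8, 757 and 694 in KO, against 1608, 1083, 1216, 1207 and 1248 in WT, again without overlap (log2 change -0.73 ± 0.14, adjusted p = 0.00195). Mrpl34, a small bacterial-type protein, had 528, 444, 463, 405 and 424 in KO, against 832, 547, 771, 695 and 895 in WT. KO 1 came within a few percent of WT 2, but the groups did not overlap (log2 change -0.71 ± 0.13, adjusted p = 0.00197).

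The central protuberance is the part of the large subunit that faces the head of the small subunit. Of its 7 members, 4 fell. Mrpl38 and Mrpl46, both specific to mitochondria, were among the genes of smallest p. Mrpl38 had 540.2, 570.1, 607, 522 and 534 normalised counts in KO, against 1075, 846, 832, 837 and 884 in WT. The KO values were tightly grouped and none reached the WT range (log2 change -0.68 ± 0.12, adjusted p = 0.000835). Mrpl46 had 443, 417, 404, 308 and 353 in KO, against 685, 504, 588, 615 and 635 in WT. It also separated the groups fully (log2 change -0.66 ± 0.12, adjusted p = 0.00177). Around the tunnel exit 4 of 8 members fell. In the stalk, which recruits translation factors, 1 of 5 fell, namely Mrpl12. Mrpl12 is the stalk protein that contacts the factors and is also known to bind mitochondrial RNA polymerase. It had 2536, 2125, 2098, 1947 and 2274 in KO, against 3478, 2508, 2885, 3267 and 3942 in WT. KO 1 exceeded WT 2, and the change was -0.54 ± 0.13 (adjusted p = 0.0100).

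In the small subunit 11 of 26 genes fell, with a median log2 change of -0.45, and in the large subunit 21 of 50 fell, with a median of -0.44. Genes with a bacterial homologue and mitochondrion-specific ones were also alike in count, 18 of 46 and 14 of 30. Among the 43 genes with under 10% of their sequence shared with or opposite other genes 21 fell, and among the other 34 12 fell. None of these differences between classes was tested. Mrps9 (chr1:42851233-42905683, plus strand), whose bacterial counterpart reaches the decoding region, had 969.7, 988, 1027, 916 and 891 normalised counts in KO, against 1892, 1373, 1455, 1451 and 1942 in WT. The groups did not overlap (log2 change -0.75 ± 0.12, adjusted p = 0.000624). Mrps17, an early rRNA-binding protein in bacteria, had 383, 288, 281, 268 and 277 in KO, against 572, 425, 439.6, 474 and 609.7 in WT. KO 1 stood above the other KO libraries but below all WT libraries (log2 change -0.75 ± 0.13, adjusted p = 0.00135). The paralogues of bacterial protein S18 did not pass the test. Their log2 changes were -0.32 ± 0.17 for Mrps18a, -0.25 ± 0.12 for Mrps18b and -0.37 ± 0.15 for Mrps18c, with adjusted p of 0.237, 0.181 and 0.126.

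Mrps36 (chr13:100735955-100744659, minus strand), the dehydrogenase subunit, had the largest fall among the 77 genes. It had 817, 745, 722, 856 and 749 normalised counts in KO, against 1579, 1251, 1407, 1633 and 1911 in WT. No KO library reached the WT range (log2 change -0.99 ± 0.14, adjusted p = 0.000233). Mrps36 shares 41.6% of its 31-base words with other genes, and the gene that shares most is the pseudogene Mrps36-ps1. Mrpl3, a protein near the catalytic centre whose human counterpart is a cardiomyopathy gene, was the only member above 0. It had 596, 945, 879, 959 and 686 in KO, against 938, 1024, 761, 772 and 560.1 in WT. The ranges overlapped almost wholly (log2 change 0.01 ± 0.19, adjusted p = 0.983). Mrpl33, a short bacterial-type protein, was split within the KO group, with 2021, 954, 872, 955 and 1596 normalised counts in KO, against 1347, 1001, 1044, 1798 and 2189.7 in WT. KO 1 and KO 5 lay within the WT range and the other 3 KO libraries below it (log2 change -0.22 ± 0.26, adjusted p = 0.646).

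Several genes separated the groups without passing the test. Mrpl50, a large subunit protein specific to mitochondria, had 550.3, 740.4, 755, 714 and 539 normalised counts in KO, against 1092, 927, 934, 894 and 789.6 in WT (log2 change -0.50 ± 0.17, adjusted p = 0.0544). Mrpl9, a bacterial-type protein of the large subunit, had 559, 849, 849, 777 and 619.8 in KO, against 1145, 1066, 1126, 1015 and 873 in WT (log2 change -0.53 ± 0.18, adjusted p = 0.0544). In both genes the highest KO library stayed below the lowest WT library.

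**Figure D2:**
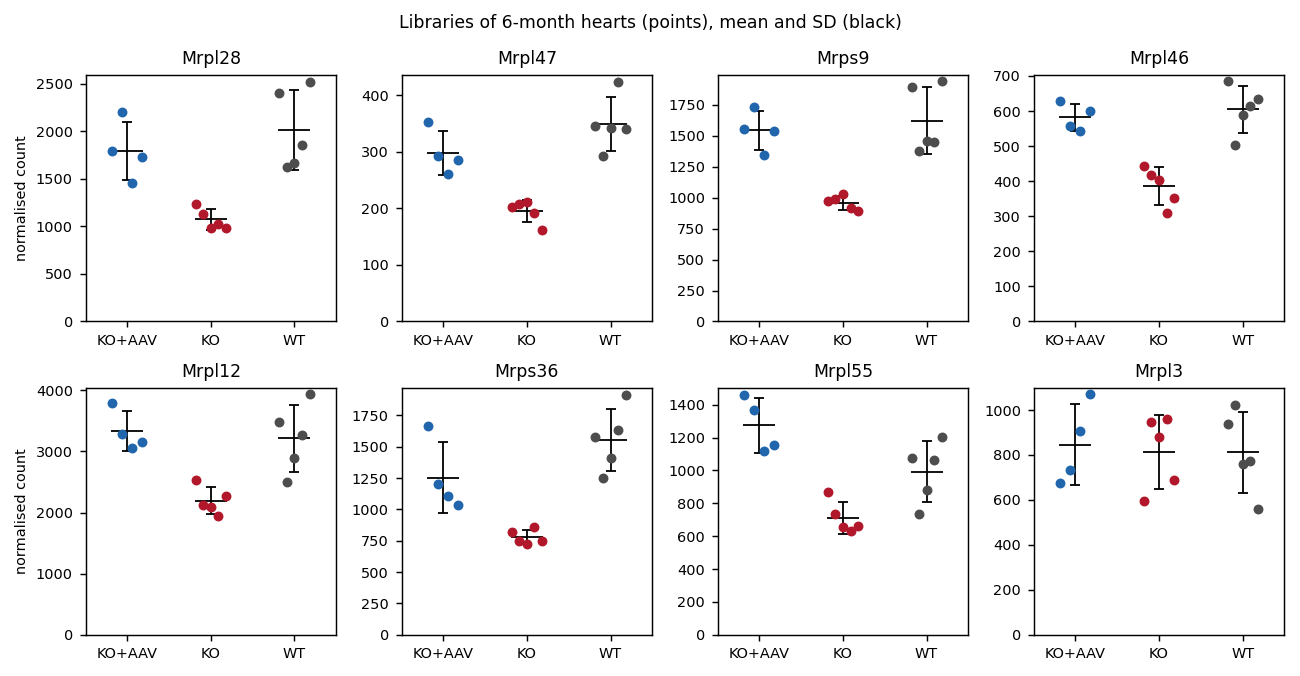
Normalised counts of 8 members at 6 months; points are libraries, and black marks are the mean and SD of each group. In Mrpl28, Mrpl47, Mrps9, Mrpl46 and Mrps36 every KO library lies below every KO+AAV and WT library, while the groups overlap in Mrpl3.

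KO+AAV hearts differed from KO hearts in the opposite direction. Of the 77 genes, 35 rose and none fell, where 5.55% of all tested genes rose and 5.69% fell. The median log2 change was 0.51, against 0.00 for all genes tested, and all 77 changes were positive. In 36 genes every KO+AAV library lay above every KO library, where 6.68% of all tested genes did so and 7.44% lay wholly below. The KO libraries enter both this comparison and that of KO with WT, so a KO library that stands low moves both. By subunit, 20 of 50 large subunit genes and 14 of 26 small subunit genes rose. The per-library medians of the 77 genes were 0.22, 0.03, -0.06 and -0.03 in KO+AAV 1 to 4, all above the 5 KO libraries and inside the WT range.

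Mrpl55 (chr11:59202486-59206134, plus strand), a central protuberance protein, had the smallest p. It had 1460.3, 1370.1, 1116 and 1153 normalised counts in KO+AAV, against 870.0, 737, 654, 631 and 664 in KO. The groups did not overlap (log2 change 0.84 ± 0.15, adjusted p = 0.00362). Mrps9 had 1554, 1729, 1347 and 1539.8 in KO+AAV, against the KO values above, a log2 change of 0.68 ± 0.13 (adjusted p = 0.00431). Mrpl34 had 842, 713, 688 and 740.0 in KO+AAV, all above KO (log2 change 0.72 ± 0.14, adjusted p = 0.00569). Mrpl2, a protein near the catalytic centre, had 1725, 1256, 1228 and 1291 in KO+AAV, against 946, 778, 847, 794 and 871 in KO. KO+AAV 1 stood apart from the other KO+AAV libraries, which still lay above KO (log2 change 0.69 ± 0.14, adjusted p = 0.00652). Mrpl42, specific to mitochondria, showed the same outlying library, with 5452, 3831, 3894 and 3737 in KO+AAV, against 2675, 2513, 2537, 2335 and 2330.0 in KO (log2 change 0.75 ± 0.15, adjusted p = 0.00652).

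Mrpl45, which anchors the ribosome to the inner membrane, had 1727, 1494, 1087 and 1117 normalised counts in KO+AAV, against 799, 799, 887, 755 and 644 in KO. The groups did not overlap (log2 change 0.78 ± 0.16, adjusted p = 0.00797). Mrpl30, a bacterial-type protein, rose by 0.79 ± 0.16 (adjusted p = 0.00652), and Mrpl46 by 0.61 ± 0.13 (adjusted p = 0.00868). The largest change was that of Mrpl14, a protein at the face that meets the small subunit, with 1512, 1416, 753 and 765 in KO+AAV, against 729.9, 417, 436, 374 and 509 in KO. KO+AAV 1 and 2 were far above KO+AAV 3 and 4, which lay just above KO 1 (log2 change 1.14 ± 0.28, adjusted p = 0.0162), and 16.4% of its exonic bases lie opposite Tmem63b. The S18 paralogues had log2 changes of 0.49 ± 0.18 (Mrps18a), 0.29 ± 0.13 (Mrps18b) and 0.52 ± 0.16 (Mrps18c), with adjusted p of 0.0866, 0.138 and 0.0508, and did not pass.

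**Figure D3:**
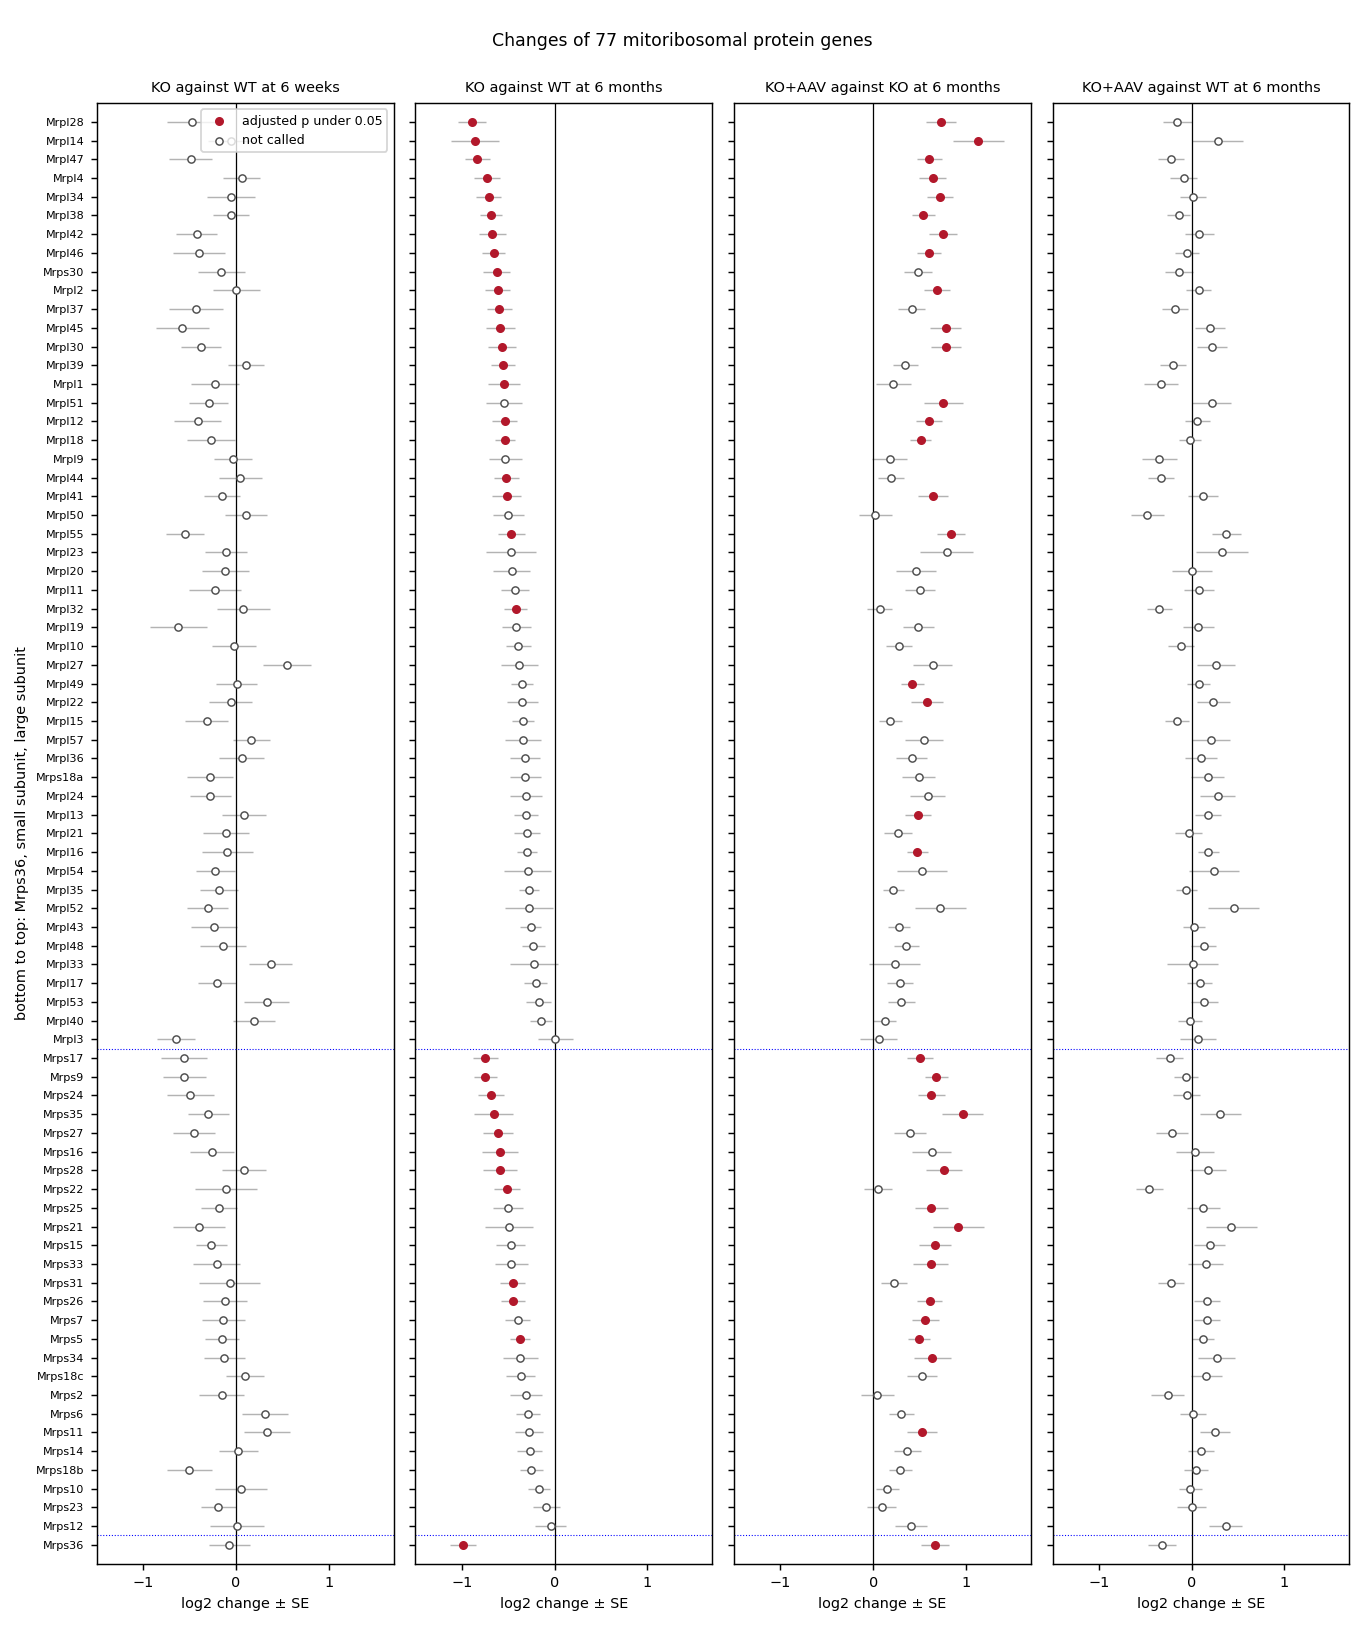
Log2 change with its standard error for each of the 77 genes in 4 comparisons, with genes in the same order in each panel, grouped as Mrps36, small subunit and large subunit; red marks an adjusted p under 0.05. In KO against WT at 6 months 33 genes are red and all lie below 0, in KO+AAV against KO 35 are red and all lie above 0, and no gene is red in KO+AAV against WT or at 6 weeks.

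Of the 77 genes, 23 both fell in KO hearts and rose in KO+AAV hearts, where 3.61% of all tested genes did both. They are 69.7% of the members that fell, against 44.1% over all tested genes that fell, and 65.7% of the members that rose, close to the 65.0% over all tested genes that rose. In these 23 the median log2 change was -0.66 in KO against WT, 0.67 in KO+AAV against KO and 0.06 in KO+AAV against WT. Another 10 genes fell in KO without passing the test in KO+AAV against KO, and their median change in KO+AAV against WT was -0.22. They include Mrps22, Mrpl32, Mrpl39 and Mrpl44. A further 12 genes rose in KO+AAV without passing the test in KO against WT, with a median of -0.38 in KO against WT. The other 32 genes passed neither test. Whether the sets differ in their response was not tested.

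Mrps22, a small subunit protein specific to mitochondria whose human gene is mutated in a form of cardiomyopathy, had 258, 203, 307 and 270.5 normalised counts in KO+AAV, 213, 309, 255, 264 and 211 in KO, and 403, 359, 339, 345 and 323 in WT. The KO+AAV and KO values overlapped, and both groups lay wholly below WT. Its log2 change was -0.51 ± 0.14 in KO against WT (adjusted p = 0.0204) and 0.05 ± 0.15 in KO+AAV against KO (adjusted p = 0.837). In KO+AAV against WT it was -0.46 ± 0.15, which did not pass the test (adjusted p = 0.139). Mrpl44, an RNA-binding protein near the tunnel exit that is likewise a human cardiomyopathy gene, had 633, 555, 788 and 903 in KO+AAV, 589, 643, 706, 605 and 560.0 in KO, and 1001, 807, 881, 853 and 909 in WT. KO lay wholly below WT (log2 change -0.52 ± 0.13, adjusted p = 0.0129), while the KO+AAV libraries spread over both ranges (0.19 ± 0.14 against KO, adjusted p = 0.365). Mrpl39, specific to mitochondria, had 892, 559.6, 778 and 851 in KO+AAV, 548, 664, 615, 618 and 542 in KO, and 866, 808, 800.4, 985 and 927 in WT. Its KO values lay wholly below WT, and KO+AAV 2 stood among the KO libraries while the other 3 KO+AAV libraries lay above them (log2 change -0.55 ± 0.13 in KO against WT, adjusted p = 0.00847, and 0.35 ± 0.14 in KO+AAV against KO, adjusted p = 0.112). Mrpl32, whose maturation by a mitochondrial protease licenses assembly of the ribosome, had 387, 309, 371 and 411 in KO+AAV, 429.7, 374, 338, 324 and 299 in KO, and 484, 416, 439, 482 and 530.3 in WT. It was lower in KO than in WT (log2 change -0.42 ± 0.13, adjusted p = 0.0313), although KO 1 reached into the WT range, and the KO+AAV values did not differ from KO beyond their spread (0.07 ± 0.13, adjusted p = 0.748).

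Between KO+AAV and WT hearts, 0 of the 77 genes passed the test (limma), and 1.33% of all tested genes passed it. At an unadjusted p under 0.05 were 6 members, or 7.79%, below the 18.3% over all tested genes. The median log2 change was 0.07, with 48 genes positive and 29 negative. It was -0.05 with the length trend of each library removed (33 positive, 44 negative), -0.01 without WT 2 and 0.01 without KO+AAV 1. In 2 genes, Mrpl32 and Mrps22, every KO+AAV library lay below every WT library, where 2.67% of all tested genes did so and 2.73% lay wholly above. Mrpl55 lay on the other side, at 1460.3, 1370.1, 1116 and 1153 normalised counts in KO+AAV, against 1073, 737, 880.1, 1065 and 1206 in WT. The ranges overlapped (log2 change 0.37 ± 0.15, adjusted p = 0.231). For Mrps36 the change was -0.32 ± 0.15 (adjusted p = 0.272). This comparison shares its libraries with the others at 6 months, and a p above the threshold does not show that KO+AAV and WT had equal levels.

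At 6 weeks, 0 of the 77 genes passed the test in KO against WT hearts (limma), and 0.589% of all tested genes passed it, 0.211% lower and 0.378% higher. At an unadjusted p under 0.05 were 4 members, or 5.19%, below the 15.4% over all tested genes. The median log2 change was -0.15, with 56 genes negative and 21 positive, against 0.01 for all genes tested. Single libraries moved it widely, to -0.03 without WT1 (41 genes negative), -0.07 without KO4 and -0.31 without WT16, and scaling to equal totals gave -0.06. In 6 of the 77 genes every KO library lay below every WT library, where 10.3% of all tested genes did so. The medians of the 77 genes were -0.09, -0.10 and -0.28 in the KO libraries KO2, KO3 and KO4, against 0.32, 0.01 and -0.34 in the WT libraries WT1, WT6 and WT16, so the WT libraries spread more widely than the difference between the groups. The 4 genes with an unadjusted p under 0.05 were Mrpl3, Mrpl55, Mrps9 and Mrps17. Mrpl3 had 296, 316 and 280.3 normalised counts in KO, against 592, 457 and 375 in WT. It did not overlap between the groups (log2 change -0.65 ± 0.21, adjusted p = 0.183), whereas at 6 months it was nearly equal in KO and WT. Mrpl55 had 447, 430.0 and 425 in KO, against 816, 592 and 529.9 in WT, also without overlap (log2 change -0.55 ± 0.20, adjusted p = 0.228). Mrpl27, a bacterial-type protein of the large subunit, went the other way with 272, 314 and 290.1 in KO, against 302, 180.3 and 144 in WT (log2 change 0.55 ± 0.26, adjusted p = 0.343), and it shares 49.2% of its 31-base words with other genes.

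The difference between the ages was tested directly, as the log2 change of KO against WT at 6 months minus that at 6 weeks. Atrial markers summed to 39430 or more in every 6-week library and to at most 1183 at 6 months. Age and the presence of atrial tissue therefore cannot be told apart in this comparison. Of the 77 genes, 0 passed (limma moderated variances), and 4.08% of all 12709 genes tested at both ages passed, 2.09% with a negative and 1.99% with a positive difference. At an unadjusted p under 0.05 were 14 members, or 18.2%, close to the 17.9% over all genes. The median difference was -0.29, against -0.02 for all genes, and 70 of the 77 differences were negative. It was -0.11 without WT16 (53 negative), -0.44 without WT1 and -0.16 with the length trend removed (55 negative). Mrps36 had the smallest p, with a log2 change of -0.99 ± 0.14 at 6 months against -0.07 ± 0.22 at 6 weeks, a difference of -0.92 ± 0.26 (adjusted p = 0.0549). Its 6-week values were 352, 486 and 412 in KO, against 560.0, 421 and 348 in WT, and overlapped. Mrpl4 had a difference of -0.79 ± 0.24 (adjusted p = 0.0728) and Mrpl27 of -0.93 ± 0.33 (adjusted p = 0.116). Without the WT1 library at 6 weeks, 3 members passed, namely Mrps36, Mrpl4 and Mrpl27, where 2.12% of all genes passed with a negative difference.

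The 77 genes moved together across the 14 libraries at 6 months. Over the 2926 pairs of genes, the median Pearson r of log2 values was 0.718, and 71.5% of the pairs were above 0.5. After the group means were removed the median r was 0.542, so genes that were high in a library of a group tended to be high together within that group. The libraries share depth scaling and transcript length effects, and r here is a description of 14 points. Pairs of other tested genes were not examined, so whether such values are particular to the members is unknown. Mrpl12 followed the mean of the other members most closely (r = 0.992), before Mrpl42 (r = 0.977) and Mrpl2 (r = 0.969). Mrpl3 was lowest (r = -0.321), and 8 of the 77 genes had an r under 0.5. Summed, the members took 0.562% to 0.647% of all normalised counts in KO+AAV libraries, 0.379% to 0.503% in KO libraries and 0.442% to 0.649% in WT libraries.

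Libraries also differed by transcript length, and this moved with the results. Among all tested genes with transcripts under 1000 bases, the median log2 change was -0.21 in KO against WT and 0.41 in KO+AAV against KO, whereas over 2500 bases it was 0.05 and -0.10. Length here is that of the longest annotated principal transcript of a gene. Which transcripts the hearts expressed was not determined, so a gene may sit in a wrong length class. By this length the members did not follow the gradient of all tested genes in KO against WT. Their medians were -0.46 for the 25 genes under 1000 bases, -0.48 for the 32 genes between 1000 and 2500 bases and -0.42 for the 20 genes over 2500 bases, with 9, 15 and 9 genes that fell. In KO+AAV against KO the medians were 0.64, 0.42 and 0.49, with 13, 15 and 7 genes that rose. With the length trend of each library removed, 29 members fell in KO against WT at a median of -0.34. Of all tested genes 8.48% fell in that fit. In KO+AAV against KO 18 members rose at a median of 0.30, where 4.84% of all tested genes rose and 5.54% fell. Of the 77 changes 67 were positive, and 1 member fell, Mrpl33 (-0.36, adjusted p = 0.0439), a gene that shares 33.3% of its 31-base words with other genes. Among those no longer past the threshold were Mrpl34 (0.21, adjusted p = 0.365), Mrpl42 (0.28, adjusted p = 0.189), Mrpl46 (0.33, adjusted p = 0.0759) and Mrps36 (0.21, adjusted p = 0.318). The part of transcript length in the uncorrected values was not tested beyond this.

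**Figure D4:**
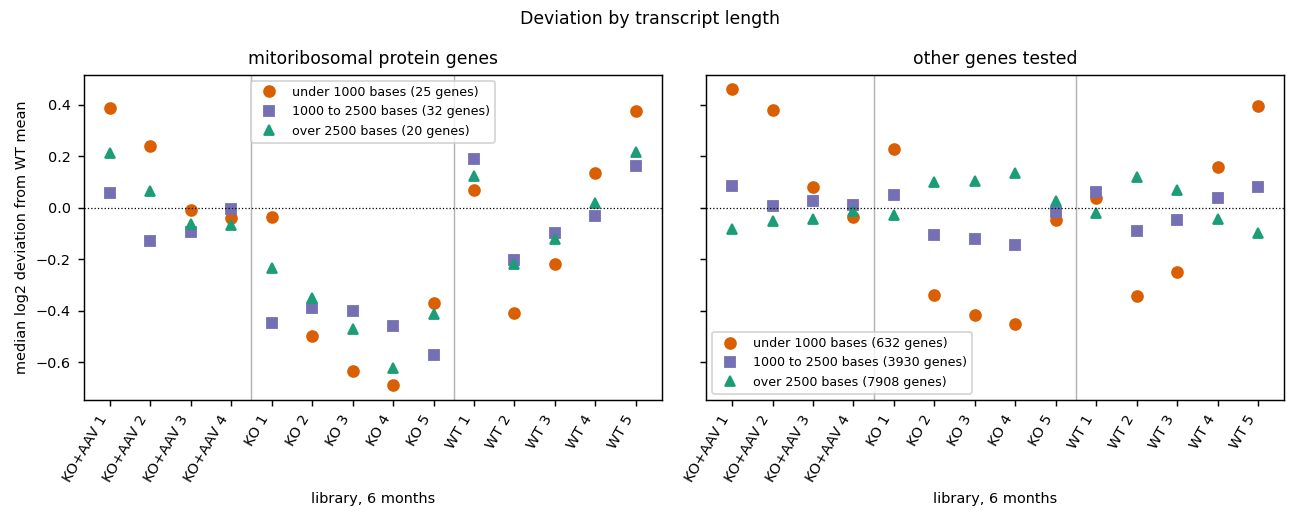
Median log2 deviation from the WT mean by transcript length class in each 6-month library, for the mitoribosomal protein genes and for all other tested genes. Among other genes under 1000 bases the medians run from -0.03 to 0.46 in KO+AAV, -0.45 to 0.23 in KO and -0.34 to 0.39 in WT, and under 1000 bases the member medians lie below those of the other genes in every KO library.

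A further difference between libraries was Xist, which marks cells with more than a single X chromosome. Xist was expressed in KO+AAV 1 and 3 and in WT 4 and 5, but in 0 of 5 KO libraries at 6 months, and in 1 library of each group at 6 weeks. With this class as a covariate, 20 members fell in KO against WT and 10 rose in KO+AAV against KO. Of all tested genes 6.35% fell and 1.67% rose in that fit. In the libraries without Xist alone, 15 members fell and 3 rose, where 5.03% of all tested genes fell and 0.611% rose. The median log2 changes of the members then were -0.35 in KO against WT and 0.47 in KO+AAV against KO. Sorbs2 was highest among the KO libraries in KO 1 and KO 5 (1648 and 1755 normalised counts). Without both, 24 members fell at a median of -0.51 and 42 rose in KO+AAV against KO at a median of 0.60. Of all tested genes 5.32% fell and 6.43% rose without these libraries. Among single libraries, leaving out WT 1 gave 20 members that fell and leaving out KO 5 gave 21, where 5.75% and 5.52% of all tested genes fell. Leaving out KO+AAV 1 gave 12 that rose, where 1.77% of all tested genes rose. Scaling all libraries to equal totals moved the median of all genes by 0.16 in KO against WT, and 16 members then fell, with 73 of 77 changes negative. Of all tested genes 4.90% fell at equal totals. None of the genes that fell or rose in the main comparisons changed sign in any of the 26 alternatives tried for each comparison. In KO against WT, 13 of the 33 genes passed in all of these, among them Mrpl28, Mrpl47, Mrps9, Mrpl46 and Mrps36, and in KO+AAV against KO 3 of 35 did so, Mrpl28, Mrpl55 and Mrps9.

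Markers of cell types moved with the groups as well. The summed level of 10 cardiomyocyte markers was 1227710 to 1840490 normalised counts in KO+AAV, 807215 to 1069210 in KO and 1364590 to 1685270 in WT. Of the 10 markers, 3 fell in KO against WT, with a median log2 change of -0.61, and 3 rose in KO+AAV against KO. Over all tested genes 8.18% fell and 8.13% rose in KO against WT, and 5.69% fell and 5.55% rose in KO+AAV against KO. The 8 fibroblast markers summed to 29017 to 38304 in KO+AAV, 34597 to 51691 in KO and 26985 to 40918 in WT. Of these 8 markers 5 rose in KO against WT, or 3 without KO 1 and KO 5, where 5.11% of all tested genes rose. In KO+AAV against KO 3 of the 8 fell. Of 7 endothelial and 6 macrophage markers 0 passed in KO against WT (limma, 1 and 0 at an unadjusted p under 0.05), and 2 of 6 mural markers fell. The 6-week libraries also held atrial markers, at 40362 to 71058 in KO against 39430 to 67452 in WT, where no 6-month library exceeded 1183. Other marker sums did not overlap between the groups at 6 weeks. Endothelial markers summed to 14986 to 19773 in KO against 9443 to 12664 in WT, fibroblast markers to 37165 to 39532 against 27611 to 32860, and 4 Schwann cell markers to 680 to 1411 against 452 to 556. Of the Schwann cell markers 1 rose in KO at 6 weeks, where 0.378% of all tested genes rose, and 1 of 3 tested fell at 6 months. The difference between the ages passed for 3 of 7 endothelial markers (median -1.02) and for 2 of 3 Schwann cell markers, where 4.08% of all genes tested at both ages passed. The part of cell makeup in the members' changes was not tested.

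Other parts of the mitochondrial translation apparatus were lower in KO hearts in varying numbers. Over all tested genes 8.18% fell in KO against WT and 5.55% rose in KO+AAV against KO. Of 6 mitoribosomal proteins whose symbols do not begin with Mrp, 4 fell in KO against WT and 4 rose in KO+AAV against KO. Dap3, a GTP-binding protein of the small subunit, averaged 1527 ± 113 normalised counts in KO+AAV (SD, n = 4), 1056 ± 71.2 in KO and 1741 ± 153 in WT (SD, n = 5 each), without overlap of KO with either group. Its log2 changes were -0.72 ± 0.10 in KO against WT (adjusted p = 0.000187) and 0.53 ± 0.11 in KO+AAV against KO (adjusted p = 0.00606). Among 26 genes for ribosome assembly and rRNA modification 10 fell and 7 rose. They include the rRNA methyltransferase Rnmtl1 (log2 change -0.68 ± 0.14 in KO, 0.79 ± 0.15 in KO+AAV against KO) and the GTPase Mtg2 (-0.61 ± 0.14 and 0.76 ± 0.15). Among 13 translation factors 5 fell and 3 rose. The elongation factor Tufm changed by -0.78 ± 0.14 in KO against WT and by 0.56 ± 0.14 in KO+AAV against KO. Its exchange factor Tsfm changed by -0.63 ± 0.12 and 0.50 ± 0.13, and was the list's only gene whose change differed between the ages (difference -1.01 ± 0.26, adjusted p = 0.0392). The list medians of the translation factors were -0.73 in KO 1 and -0.71 in KO 5, against -0.15 to -0.09 in KO 2 to 4, which lay inside the WT range of -0.16 to 0.15. In KO+AAV 1 to 4 these medians were -0.03, -0.33, -0.13 and -0.02. Without KO 1 and KO 5, 2 translation factors fell and 0 rose (limma), and of the assembly genes 4 fell and 5 rose.

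Among 20 genes for aminoacyl-tRNA synthesis in mitochondria 7 fell in KO against WT and 6 rose in KO+AAV against KO, led in KO by Sars2 (log2 change -0.93 ± 0.14) and Cars2 (-0.72 ± 0.12). Of 12 genes for mitochondrial transcription and RNA stability 2 fell (16.7%) and 1 rose (8.33%), beside 8.18% and 5.55% of all tested genes. Hsd17b10, a dehydrogenase that is also part of mitochondrial RNase P, changed by -0.91 ± 0.14 and 0.94 ± 0.15, and the RNA polymerase Polrmt fell by 0.46 ± 0.15 in KO against WT. Of 14 regulators of nuclear genes for mitochondrial proteins 3 fell (21.4%) and 1 rose (7.14%), the latter share close to the 5.55% of all tested genes. The coactivator Ppargc1a fell by 1.05 ± 0.24 (adjusted p = 0.00728), and its changes at the 2 ages differed (-1.51, adjusted p = 0.0315). The nuclear receptors Ppara and Esrra fell by 0.70 ± 0.20 and 0.39 ± 0.11, and Esrra rose by 0.52 ± 0.12 in KO+AAV against KO. KO 1 and KO 5 again stood apart from the other KO libraries, with medians of -0.61 and -0.66 for the transcription and RNA stability genes. KO 2 to 4 were at -0.13 to -0.08, inside the WT range of -0.30 to 0.16. KO+AAV 1 to 4 were at -0.36, -0.65, -0.12 and -0.03, so low medians were not confined to KO libraries. For the tRNA synthesis genes KO 1 and KO 5 were at -0.57 and -0.64, against -0.35 to -0.16 in KO 2 to 4 and -0.20 to -0.04 in KO+AAV. Without KO 1 and KO 5, 3 tRNA synthesis genes fell and 3 rose, 1 transcription and RNA stability gene fell and 2 rose, and 0 regulators fell.

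Compared with other large sets, the members stood between the respiratory chain and the cytosolic ribosome. Of 80 tested nuclear genes for respiratory chain subunits 50 fell in KO against WT (median -0.68) and 59 rose in KO+AAV against KO (median 0.83). Of 85 cytosolic ribosomal protein genes 2 fell and 2 rose in KO against WT, with a median of -0.11. Those that fell were Rpl3l (-1.80 ± 0.16), a heart and muscle paralogue of Rpl3, and Rps2 (-0.69 ± 0.15), and those that rose were Rpl3 (0.90 ± 0.17) and Rpl29 (1.00 ± 0.31). In KO+AAV against KO 3 rose, with a median of 0.43. The symbol pattern for this list also took in 9 S6 kinase genes, which these counts leave out. With them included, the library medians ran from -0.05 to 0.53 in KO+AAV, -0.47 to 0.47 in KO and -0.43 to 0.55 in WT. KO 1 and KO 5 were highest among the KO libraries, at 0.47 and 0.18. With such a spread within groups, few calls do not show that the changes were small. No difference between the lists was tested.

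**Figure D5:**
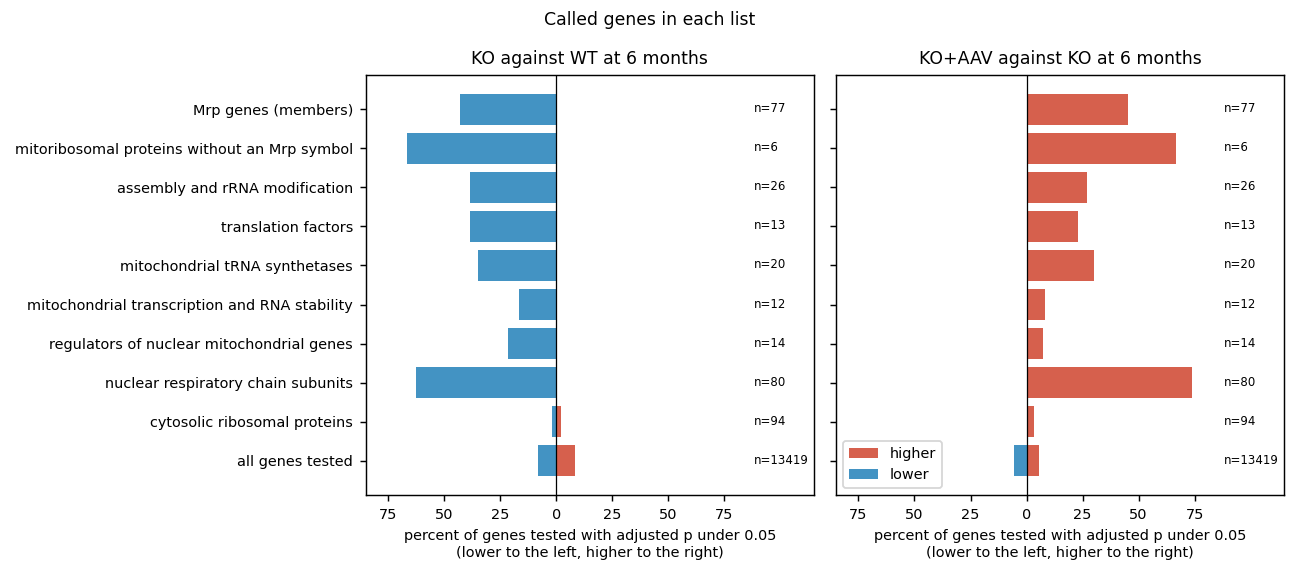
Percent of the tested genes of each list that were lower or higher at an adjusted p under 0.05, in KO against WT and in KO+AAV against KO at 6 months. In KO against WT 42.9% of the 77 members were lower, against 62.5% of the respiratory chain subunits, 2.13% of the cytosolic ribosomal list, which includes the S6 kinase genes in this plot, and 8.18% of all tested genes.

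Promoter windows, described here by letter matches only, were found for 68 of the 77 genes, 74 windows in all, and 43 of them hold a match to at least 1 of the 5 motifs searched on both strands. The ETS motif occurred in 33.8% of member windows and 16.2% of the windows of all tested genes. It was present in 18.8% of the windows of genes that fell in KO and 45.2% of those of the other members. AAGATGG occurred in 17.6% of member windows against 6.81% of all, GCATGCG, a part of the NRF1 site, in 10.8% against 6.05%, AAGGTCA in 5.41% against 3.23%, and the E-box CACGTG in 9.46% against 9.82%. The ETS and YY1 motifs can share 3 letters, and in no member window did their matches overlap. Of the genes whose windows are shown above, Mrpl34 with an ETS match fell by 0.71 and Mrpl46 with no match by 0.66. Its divergent neighbour Mrps11 had 509, 387, 336 and 353 normalised counts in KO+AAV, 264, 272, 278, 289 and 259 in KO, and 375, 306, 234, 359 and 401 in WT. The KO values of Mrps11 overlapped with WT (log2 change -0.27 ± 0.15, adjusted p = 0.263) and lay below all KO+AAV values (0.52 ± 0.16, adjusted p = 0.0490). For this pair, 16.4% of the exonic bases of Mrps11 lie opposite Mrpl46.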

How the data were processed

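The authors deposited a table of normalised counts per gene for each age, treated here as a signal and not as counts, since the authors scaled each table on its own and whole reads could not be recovered. Poly(A) RNA had been made into stranded paired-end libraries of 150 bases, per the labels' protocols, and mm10 is the build in the submitters' processing notes. For the aligner, counter, annotation and strand setting: not given in the sources used here. Totals were 11359100 to 13670300 normalised counts per library at 6 months and 6705130 to 8240290 at 6 weeks, and the read depth behind each value is unknown, so no counting interval is given. The labels give separate mice but nothing on litters. The 6-week columns match only a group, so their libraries carry no replicate number.

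Genes with a value of at least 10 in at least 3 libraries (6 weeks) or 4 libraries (6 months) were tested with limma 3.58.1 in R 4.3.3 with a mean-variance trend on log2(value + 1), so fold changes of low genes are understated. P-values are two-sided, with Benjamini-Hochberg adjustment over all genes tested and called at 0.05. At 6 months 1 model held the 3 groups. Differences between ages used the summed variances of both fits. The planned count test was replaced because the tables hold no counts. The procedure was also run on simulated data with independent noise for each gene and shifts larger than most changes of the members. The members moved together, so that trial gives no measure of error for their calls. Transcript lengths, 31-base words shared with other genes and antisense overlap come from GENCODE M21, and promoter windows from RefSeq (GRCm38.p6). Transcripts of mitochondrial DNA were not analysed here.

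The members, the lists, among them markers of T cells, B cells, Schwann cells, adipocytes and skeletal muscle, and the tests were chosen with earlier results of these data known. Of these 5 marker lists 0 to 3 genes each passed the filter at 6 months, and no gene of the T cell, B cell, adipocyte or skeletal muscle lists was called in KO against WT at either age. Members were named by rule: in each comparison the 8 of smallest p, any called against the direction of most members, the Mrps18 paralogues, Mrpl12, and the 3 highest and 3 lowest per transcript length, and in each other list up to 4 genes of smallest p. Mrps11 is outside the rule. Alternatives were other pseudocounts, no filter, equal totals, quantile normalisation, no trend, Xist class, single libraries left out, KO 1 and KO 5 left out, separate pairs of groups, a replicate block and, added after seeing the data, removal of the length trend and, for the other lists, omission of KO 1 and KO 5. Python 3.11.15, pandas 2.3.3, numpy 2.4.6 and matplotlib 3.10.9 were used for descriptions and figures.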

Additional observations from a re-analysis of the deposited data

Results flagged for a closer look

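In 4 of 93 groups of 4 or 5 libraries checked for 31 named members, a single library stood apart from the rest of its group, where chance alone flags about 1 in 20 groups. In KO+AAV 1, Mrpl2 was at 1725 normalised counts against 1228 to 1291 in the other KO+AAV libraries. In the same library Mrpl42 was at 5452 against 3737 to 3894. In WT 1, Mrpl38 was at 1075 against 832 to 884 in the other WT libraries. In KO 1, Mrps17 was at 383 against 268 to 288 in the other KO libraries.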

How the results depend on the processing

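The count of 33 mitoribosomal protein genes that fell in KO against WT at 6 months became 16 at equal totals, 20 with the Xist class as a covariate and 15 in libraries without Xist, and lay between 20 and 41 when single libraries were left out (20 without WT 1, 21 without KO 5). The count of 35 genes that rose in KO+AAV against KO became 10 with the Xist class, 3 in libraries without Xist and 18 with 1 gene lower after removal of the length trend, and lay between 12 and 42 with single libraries left out (12 without KO+AAV 1). The age difference gave 1 lower gene with a pseudocount of 10 and 0 to 3 with single libraries left out: 3 without WT1 at 6 weeks, and 1 each without KO2 at 6 weeks, WT 2 or KO+AAV 1. Fewer libraries enter some of these fits, and otherwise the cause was not tested. The shares of all tested genes changed as well. In KO against WT 4.90% fell at equal totals, 6.35% with the Xist class and 5.03% without Xist. In KO+AAV against KO 1.67% rose with the Xist class, 0.611% without Xist and 1.77% without KO+AAV 1. With a replicate block, 35 members fell and 44 rose, where 7.78% of all tested genes fell and 6.37% rose. The labels do not say whether the replicate numbers pair the samples. Of 13 same-numbered pairs, 7 had a correlation above 0.1 (range -0.391 to 0.253). Pairs with different numbers were not examined beside them, so these values cannot settle whether the numbers pair the samples. Small changes reversed sign. In KO+AAV against WT after removal of the length trend, Mrps18b was at -0.0769, Mrps18c at -0.0718 and Mrpl12 at -0.0188. With single libraries left out, Mrps18b lay between -0.0308 (without WT 2) and 0.105 there, being -0.00278 without KO+AAV 2, and Mrpl12 between -0.0240 (without WT 2) and 0.139, being -0.00382 without KO+AAV 1. In KO against WT at 6 weeks Mrps18c lay between -0.0258 (without WT16) and 0.190. Of 1306 values of single named genes under alternatives, 1268 kept direction and side of the threshold, 14 lost and 16 gained the call. The age difference was not run with a replicate block or without the mean-variance trend, and count models were not run because the tables hold no counts.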
